A study of Mus musculus with 12 samples.

Results

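The 142 peaks described here lie on mouse chromosome 13 between 21.7 and 23.77 Mb of the mm10 assembly, the interval of the main histone gene cluster, and were taken from a deposited table of 68689 peaks by the position of their midpoints. They were split by distance: 67 peaks had their midpoint within 1 kb of a histone gene and are called histone-near, and the other 75 are called other cluster peaks. Widening the distance to 2 kb added no histone-near peak, and narrowing it to 500 bp left 61, so 6 peaks lay between these limits.

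Open chromatin was profiled with Omni-ATAC-seq, an assay that cuts and tags exposed DNA with the Tn5 transposase, in germinal center B cells from the spleens of C57BL/6 mice aged 8 to 10 weeks. The groups were Pbrm1+/+ (WT) and Pbrm1-/- (HOMO), each in populations named CB and CC, abbreviations that the labels leave unexplained, with 3 libraries in each of 4 groups. Pbrm1, the gene knocked out, makes a protein found in PBAF but in no other SWI/SNF complex, the machines that slide and evict nucleosomes. Each column name starts with Pbrm1AID, whose meaning is not stated, and the construction of the allele, the cells it acts in and anything the WT mice share of it are not stated either. Nothing in the labels ties the libraries to separate mice, so p-values measure the spread between these libraries, which may be technical.

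Library totals in peaks ran from 6431354 to 45590454 counts. The shallowest pair were HOMO CC 1 and HOMO CB 1 (7679509 counts). Values below are counts scaled to library totals with TMM factors (CPM). All peaks are 501 bp long, so CPM can be compared between peaks. Of 9 germinal center B cell markers fixed for the check, all 9 had a peak, at 24.4 to 84.7 CPM. Of other cells' markers, 2 of 5 T cell genes had a peak (5.36 to 21.4 CPM; none at Cd3e, Cd3g and Cd8a), as did 3 of 4 myeloid genes (1.9 to 12.2 CPM; none at Lyz2) and 2 of 4 erythroid genes (1.79 to 44.8 CPM; none at Gata1 and Hba-a1).

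Replication-dependent histone genes are short, intronless genes that are transcribed in S phase to package new DNA, and their messenger RNAs end in a stem-loop in place of a poly(A) tail. H2A, H2B, H3 and H4 form the nucleosome core, and H1 binds the linker DNA between nucleosomes. The genes are kept in clusters, often as divergent H2A and H2B pairs that share a promoter, and the nuclear factor Npat gathers at them in histone locus bodies. Germinal center B cells are among the fastest dividing cells of the body and have a high demand for histones.

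The interval held 54 histone genes by the RefSeq annotation, with 6 genes of the H1 class, 14 of H2A, 14 of H2B, 9 of H3 and 11 of H4. Of these, 52 were annotated as protein-coding. H2ac14 and H2ac5-ps were annotated as pseudogenes and are counted throughout as H2A genes. A peak lay within 1 kb of 49 of the 54. The 5 without one were H2bc23, H2ac23, H2ac24, H4bc24 (an H2B gene by its older symbol) and H1f6, the testis-specific linker histone gene. The histone-near peaks fell into 3 segments: 18 between 21714672 and 21831733, 7 between 22034835 and 22043886, and 42 between 23530169 and 23763827. Histone genes are so close together that 28 of the 67 peaks were near more than 1 of them, and 17 were near both an H2A and an H2B gene.

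Promoter sequences are printed with matches to known histone promoter motifs, for genes whose peaks the results turn on. Each stretch is the 140 bases before the start of the gene, 5′ to 3′ on the strand of the gene, from the RefSeq promoter table (build GRCm38.p6). The first is H2bc8, whose start lies under the most accessible peak of the cluster (chr13:23571260-23571399, plus strand). H3c2 (chr13:23752205-23752344, plus strand) has the peak of smallest p in CC. H1f3 (chr13:23554892-23555031, plus strand) has the weakest H1 peak, and H4c9 (chr13:22041363-22041502, minus strand) has a start peak that leaned higher in HOMO CB. All 4 stretches lie wholly inside a peak. Capitals mark matches to the motifs named after them.
H2bc8: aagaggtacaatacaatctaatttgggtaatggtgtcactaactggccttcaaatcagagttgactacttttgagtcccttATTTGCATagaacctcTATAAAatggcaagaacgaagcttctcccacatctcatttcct
H3c2: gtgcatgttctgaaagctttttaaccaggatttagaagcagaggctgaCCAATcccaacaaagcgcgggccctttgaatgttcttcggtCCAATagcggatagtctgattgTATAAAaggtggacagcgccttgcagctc
H1f3: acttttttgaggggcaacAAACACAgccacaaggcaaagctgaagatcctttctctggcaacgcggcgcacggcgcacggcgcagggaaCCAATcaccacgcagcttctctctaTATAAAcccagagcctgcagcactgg
H4c9: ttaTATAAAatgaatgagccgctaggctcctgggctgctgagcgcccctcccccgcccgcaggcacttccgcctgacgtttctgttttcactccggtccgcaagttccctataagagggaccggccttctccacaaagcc

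The motifs were the octamer ATTTGCAT, bound by Oct factors such as Oct-1 (Pou2f1), the TATA box TATAAA, the CCAAT box CCAAT, bound by NF-Y, the H1 box AAACACA, and an E2F-like motif TTTGGCGC. They were searched on both strands of the 250 bases before the start, and no motif contains another. The octamer began 59 bases before the start of H2bc8, and the H1 box began 122 bases before the start of H1f3. In H3c2 the CCAAT matches began 92 and 51 bases before the start and the TATA box 29 bases before it.

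The table gave 50 windows for 49 of the cluster's genes, since H2bc6 has more than 1 start. It gave none for H3c1, H2bc4, H2ac5-ps, H3c7 and H2ac14. The octamer matched 4 of 12 H2A and 5 of 14 H2B windows and no H1, H3 or H4 window, against 1.6% of all 32851 promoter windows of the table. The CCAAT box matched all 6 H1, 12 H2A, 14 H2B and 7 H3 windows but 3 of 11 H4 windows, against 33.8% of all windows. The H1 box matched 5 of 6 H1 windows, 1 of H2A and 1 of H2B, against 6.25% of all. TATAAA matched 24 of 50 windows (48.0%) against 12.4% of all. The E2F-like motif matched none of the 50, and 0.417% of all windows. These matches are descriptions of letters, not of bound sites.

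Promoters of a few genes were near-copies of each other, so that a read from them can align to more than 1 place. H4c17 (chr13:21811606-21811745, plus strand) and H4c18 (chr13:21832198-21832337, minus strand) are shown because no peak lay over either start. Capitals here mark the bases outside the stretch they share.
H4c17: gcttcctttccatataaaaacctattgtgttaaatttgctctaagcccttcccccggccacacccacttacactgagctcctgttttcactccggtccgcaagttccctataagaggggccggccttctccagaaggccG
H4c18: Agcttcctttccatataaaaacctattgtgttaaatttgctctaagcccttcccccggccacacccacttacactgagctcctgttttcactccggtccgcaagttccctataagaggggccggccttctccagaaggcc

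The longest exact run that these windows, 250 bases before to 50 after the start, had in common was 285 bases. For H2bc23 and H4bc24 it was the whole 300 bases. Runs of 267 and 233 bases joined the windows of H2ac23 and H2ac24 to those of the same pair. None of the 6 windows with a shared run of at least 100 bases had a peak over its start. The 40 windows with a peak over the start shared runs of 11 to 40 bases, with a median of 15. H4c11 and H4c12, which shared 72 bases, also lacked a peak over the start, as did H1f5 and H1f6 with runs of 13 bases. The sources used here do not give the authors' treatment of reads that align to more than 1 place, and its part in these absences was not tested. Counts near such copies are therefore uncertain. The lowest histone-near peak of all lay 714 bp from the start of H4c18, at 0.48 log2 CPM.

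**Figure D1:**
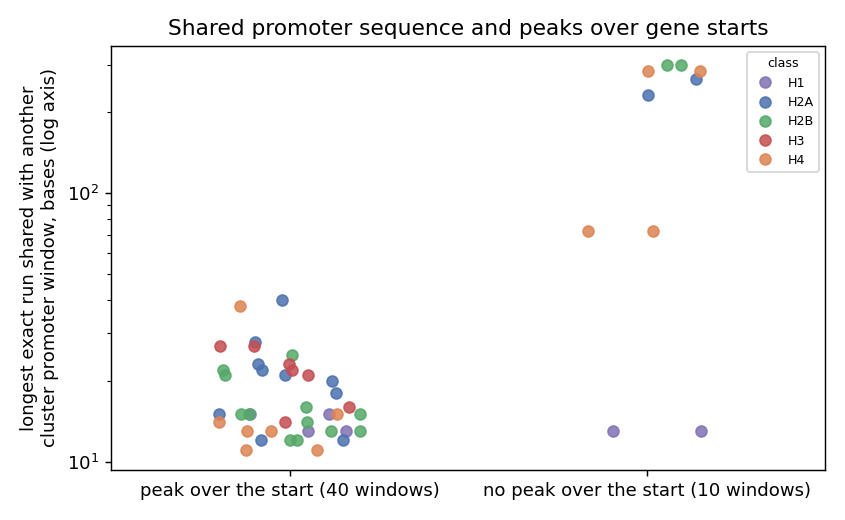
Longest exact run of bases (log axis) that each of 50 promoter windows of cluster histone genes shared with another, non-overlapping window of the cluster, either strand, split by whether a peak covered the gene start. Points are windows coloured by histone class, spread sideways for legibility. The 40 windows with a peak shared at most 40 bases, and the 6 windows that shared 233 bases or more had no peak.

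Histone-near peaks were at the median more open than all peaks of these cells. The median histone-near peak had 29.5 CPM, against 7.78 CPM over all peaks. It was 22 CPM over the 16106 peaks within 1 kb of a gene end, meaning either end of a protein-coding gene. No comparison with the starts of other genes alone was made. The other cluster peaks had a median of 9.67 CPM. The 33 peaks with their midpoint within 250 bp of a histone gene start had a median of 44.8 CPM, and the 34 farther ones 17.1 CPM. On the log2 scale the histone-near peaks ran from 0.48 to 6.31.

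Levels at gene starts differed between classes, but many H2A and H2B starts share a peak. Peaks over an H1 start had 14.9 to 28.5 CPM (4 peaks) and those over an H2A start 30.4 to 79.1 CPM (10 peaks), so the ranges did not overlap. The medians were 25.3 CPM for H1, 68.0 for H2A, 67 for H2B, 32.7 for H3 and 37.4 for H4. The H2A and H2B values share peaks, because 7 peaks covered the starts of an H2A and an H2B gene at once. The H2A start peaks not near an H2B gene, of H2ac4 and H2ac10, had 30.4 and 42.2 CPM. Start peaks of H2B genes not near an H2A gene, at H2bc6 and H2bc9, had 38.6 to 55.4 CPM. All of these lay inside the H3 range of 29.5 to 65.0 CPM. The median was 5.82 log2 CPM over the 17 histone-near peaks near both classes. It was 4.91 over the 20 near an H2A or H2B gene but not both. The part of sharing in the class medians was not tested. H2A and H2B starts with an octamer match had a median of 66.8 CPM (7 peaks) and those without 61.8 CPM (8 peaks), with overlapping ranges of 30.4 to 79.1 and 42.2 to 71.1. These are levels of single peaks, compared without a test.

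**Figure D2:**
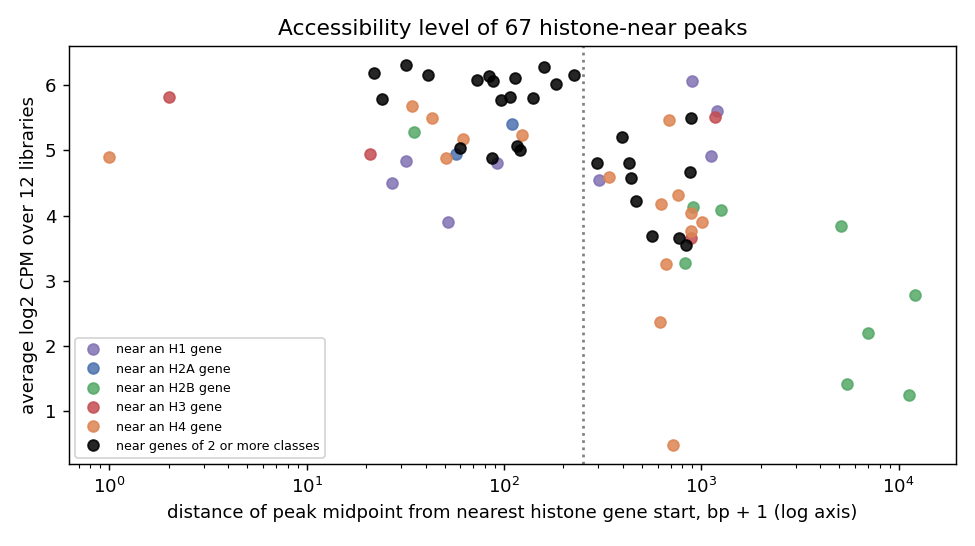
Average log2 CPM over 12 libraries of the 67 histone-near peaks against the distance of the peak midpoint from the nearest histone gene start (log axis, 1 bp added), coloured by the class of gene within 1 kb. The dotted line marks 250 bp. The 33 peaks left of it had a median of 44.8 CPM, and the lowest peaks, at 0.48 and 1.25 log2 CPM, lie right of it.

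The most accessible histone-near peak covered the divergent starts of H2ac8 and H2bc8 (23571001 to 23571501), which encode an H2A and an H2B core histone. Its 3 libraries had 72.2, 85.2 and 81.5 CPM in WT CB and 69.2, 90.6 and 88.0 CPM in HOMO CB. They had 61.6, 71.9 and 77.3 CPM in WT CC and 65.2, 92.3 and 94.2 CPM in HOMO CC. In both populations the HOMO libraries numbered 2 and 3 were above all WT libraries, and the HOMO library numbered 1 was within or below the WT range. The log2 fold change of HOMO against WT was 0.06 in CB (SE 0.13) and 0.27 in CC (SE 0.13, edgeR adjusted p = 0.301).

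The strongest H3 and H4 peak covered the start of H4c1 and lay mostly between that gene and its neighbour H3c1 (23761223 to 23761723). It had 61.3, 65.2 and 79.6 CPM in WT CB, 57.4, 82.6 and 79.8 in HOMO CB, 63.5, 65.0 and 71.6 in WT CC and 62.1, 80.4 and 84.6 in HOMO CC. The groups overlapped in both populations. The strongest peak near an H1 gene was 898 bp from the start of H1f2, with 64.1 to 68.5 CPM in WT CB and 69.0 to 72.1 CPM in HOMO CB, without overlap, while in CC WT (62.1 to 66.6 CPM) and HOMO (58.9 to 70.2 CPM) overlapped. Its log2 fold changes were 0.08 and 0.03 (SE 0.08 each).

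Among the weakest peaks of each class, none was called either. The start peak of H1f3, printed above, had 10.3 to 16.7 CPM in WT CB, 14.5 to 17.7 in HOMO CB, 12.4 to 15.8 in WT CC and 14.3 to 16.4 in HOMO CC. The weakest H3 peak, 884 bp from the start of H3c6, had 10.8 to 13.1 CPM in WT CB and 12.7 to 13.7 CPM in HOMO CB. The weakest H2B peak lay inside the long annotated span of H2bc6, 11290 bp from the nearest histone start, and stayed between 1.56 and 2.83 CPM in all libraries. The weakest H4 peak, near H4c18, was at 0 in HOMO CB 1 and reached 2.18 CPM in WT CB 2.

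The first comparison asked whether loss of Pbrm1 changed accessibility at the histone genes of CB cells. None of the 67 histone-near peaks passed the quasi-likelihood test of edgeR in HOMO against WT CB (Benjamini-Hochberg adjusted p under 0.05), where 4.63% of all peaks were called, 0.779% higher and 3.85% lower. An unadjusted p under 0.05 was found at 7 of them, 6 higher and 1 lower, against 19.7% of all peaks. DESeq2 and limma after loess normalization also called 0 and found 7 each at an unadjusted p under 0.05. The 95% interval of the log2 fold change lay within 1.5-fold in either direction (0.58) at 58 of 67 peaks and within 2-fold at 66.

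In CC cells edgeR also called 0 of 67 histone-near peaks in HOMO against WT, where 2.75% of all peaks were called (0.578% higher and 2.17% lower), and found 5 with an unadjusted p under 0.05, against 17.2% of all peaks. DESeq2 called 0 and found 4, and limma called 0 and found 3. The intervals lay within 1.5-fold at 59 peaks and within 2-fold at all 67. The genotype effect did not pass edgeR's test for a difference between CC and CB at any histone-near peak, with 0 at an unadjusted p under 0.05 in edgeR, DESeq2 and limma. Over all peaks that test called 0.0%, and 1.18% had an unadjusted p under 0.05. It took no account of the deviations that same-numbered CB and CC libraries of a genotype shared. The share of small p was below what no effect at any peak would give. The test was therefore conservative, and the lack of calls does not show that the effects were equal.

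Below this threshold the histone-near peaks leaned upward in HOMO. The median log2 fold change was 0.07 in CB and 0.10 in CC, against 0.01 and 0.02 over all peaks. It was above 0 at 44 of 67 peaks in CB and 55 of 67 in CC, against 51.0% and 53.7% of all peaks. Among the 33 peaks at gene starts it was above 0 at 27 in CB and 30 in CC, with medians of 0.11 and 0.15. Peaks within 1 kb of any gene end leaned the other way, with medians of -0.11 in CB and -0.07 in CC and 9.43% and 5.78% called, of which 41 were higher and 1477 lower in CB. The CB and CC comparisons use different libraries, but same-numbered CB and CC libraries of a genotype deviated together. The lean in CC is therefore not independent of that in CB. Neighbouring peaks of a library are not independent either, and no test was made over the members.

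**Figure D3:**
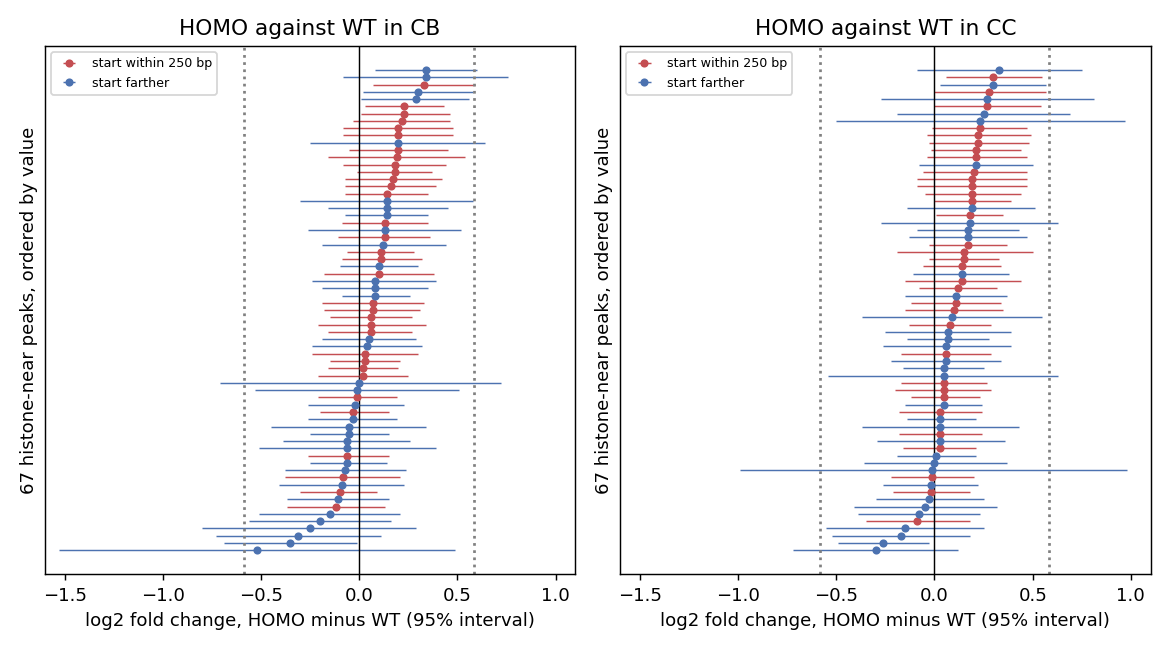
Log2 fold change of HOMO against WT with its 95% interval (edgeR) for each of the 67 histone-near peaks in CB (left) and CC (right), ordered by value, red where the midpoint is within 250 bp of a histone gene start. Dotted lines mark 1.5-fold. Intervals stay inside these lines at 58 peaks in CB and 59 in CC.

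By class, peaks near H3 genes had medians of 0.09 in CB and 0.13 in CC (14 peaks), those near H4 genes 0.08 and 0.11 (19), near H2A genes 0.06 and 0.14 (25), near H2B genes 0.04 and 0.06 (29), and near H1 genes -0.02 and 0.03 (9), where the value in CC crossed 0 after loess normalization. A peak near genes of more than 1 class counts in each. No class held a called peak in any of the 5 comparisons. By segment, the medians were 0.00 and 0.03 in the first, 0.02 and 0.06 in the second and 0.08 and 0.14 in the third, which holds 42 of the 67 peaks.

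The upward lean differed between libraries of a group. Summed over the 67 peaks, accessibility was 2174, 2342 and 2330 CPM in the WT CB libraries and 2158, 2543 and 2470 CPM in HOMO CB. It was 2096, 2131 and 2237 CPM in WT CC and 2049, 2453 and 2455 CPM in HOMO CC. In each population the HOMO libraries numbered 2 and 3 were above all WT libraries and HOMO library 1 was below them all. The means were 2282 ± 94.1 (SD, n = 3) in WT CB and 2391 ± 205 in HOMO CB, and 2154 ± 73.5 in WT CC and 2319 ± 234 in HOMO CC, so HOMO was 4.76% higher in CB and 7.64% higher in CC, in both less than 1 SD of the HOMO libraries.

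Both HOMO libraries numbered 1, the shallowest of the study, were the lowest of their group at most histone-near peaks: 54 of 67 (80.6%) in CB and 50 of 67 (74.6%) in CC. Over all peaks these libraries were lowest at 40.7% and 43.0%, and at the other cluster peaks at 33.3% and 44.0%. At gene starts the counts were 29 and 28 of 33. The WT libraries numbered 1 (20822355 counts in CB and 12434503 in CC) were also lowest more often here than over all peaks: at 50.7% of histone-near peaks against 25.8% in CB, and at 43.3% against 30.7% in CC. WT CB 2, the next shallowest library (8826472 counts), went the other way. It was lowest at 19.4% of histone-near peaks against 35.6% of all peaks, and highest at 49.3% against 33.2%. The part of depth was not tested. Without both HOMO libraries numbered 1, an alternative chosen after the data were seen, the medians were 0.13 in CB and 0.16 in CC. The test then called 2 histone-near peaks higher in CB (H4c9 and the start peak of H4c3), where 1.34% of all peaks were higher, and 5 higher in CC (near H2ac8 and H2bc8, H2ac11 and H2bc11, H2ac7 and H2bc7, H2ac5-ps and H2bc3, and H2ac4), where 1.81% were. Without HOMO CC 1 alone, the peak of H2ac8 and H2bc8 was called in CC, where 1.31% of all peaks were higher. The peak had a log2 fold change of 0.41 there (edgeR adjusted p = 0.0445). The libraries left out were the lowest at most histone-near peaks, so leaving them out raises the HOMO values there by construction. These calls are therefore no separate evidence of a rise. With the log2 library total as a covariate in the fit of all libraries, 0 histone-near peaks were called in either population. All peaks were called at 11.8% in CB and 8.42% in CC in that fit. The histone-near medians were 0.03 in CB and 0.10 in CC.

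**Figure D4:**
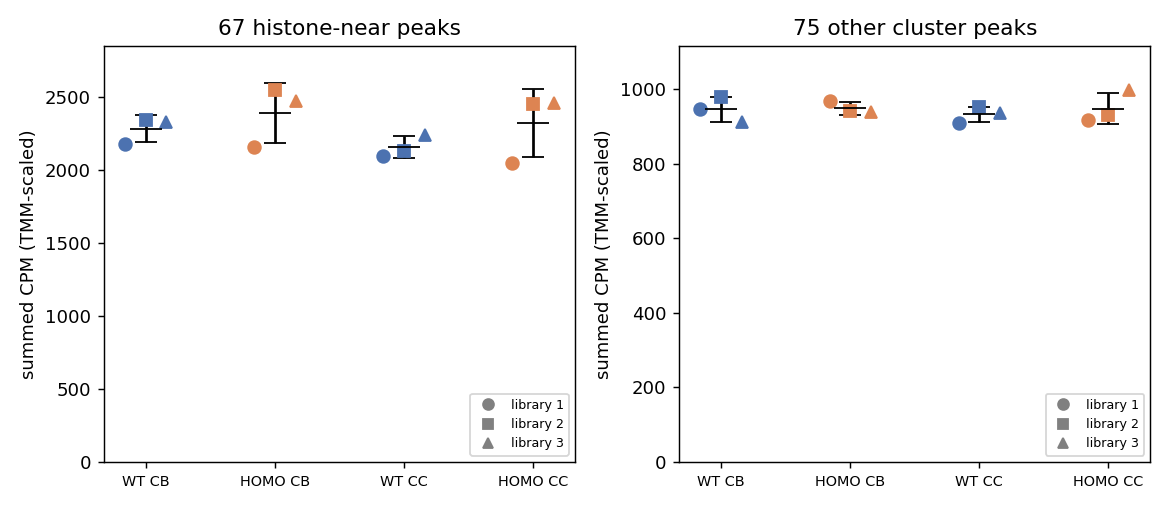
Summed CPM over the 67 histone-near peaks (left) and the 75 other cluster peaks (right) in each of 12 libraries, by group. Symbols give the library number, horizontal bars the group mean and error bars 1 SD. At the histone-near peaks HOMO library 1 lies below the WT libraries of its population and HOMO libraries 2 and 3 lie above them, while the other cluster peaks run from 910 to 996 CPM in all libraries.

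The peaks that came closest to the threshold were small in effect. In CB the smallest p belonged to a peak 888 bp from the start of H4c3, an H4 gene. It had 13.6, 14.9 and 16.3 CPM in WT CB and 18.6, 19 and 19.1 CPM in HOMO CB, with no overlap (log2 fold change 0.34, SE 0.12, edgeR adjusted p = 0.122). The start peak of the same gene had 46.2, 48.3 and 48.7 CPM in WT CB and 47.5, 59.0 and 60.1 CPM in HOMO CB, with 1 HOMO library inside the WT range.

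The start peak of H4c9, also an H4 gene, had 23.3, 28.1 and 28.6 CPM in WT CB and 29.1, 36.1 and 34.2 CPM in HOMO CB. All 3 HOMO libraries were above the WT libraries there (log2 fold change 0.33, SE 0.13, edgeR adjusted p = 0.143), and in CC the groups overlapped, at 24.5 to 29.5 and 25.7 to 34.3 CPM. The peak 625 bp from the start of H4c8 was higher in every HOMO library of both populations. It had 14.3 to 16.7 CPM in WT CB and 17.8 to 21 in HOMO CB, and 14.7 to 18.2 in WT CC and 18.3 to 21.9 in HOMO CC, with log2 fold changes of 0.29 and 0.30 (SE 0.13 each) that missed the threshold (edgeR adjusted p = 0.231 and 0.232). This peak and the start peak of H4c8 were the 2 histone-near peaks also within 1 kb of a tRNA gene, n-TMcat9. The part of the tRNA gene was not tested.

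In CC the smallest p belonged to the start peak of H3c2, which is also near H2ac4. It had 26.9, 25.3 and 31.8 CPM in WT CC and 30.5, 35.7 and 36.8 CPM in HOMO CC, and HOMO library 1 lay inside the WT range. The log2 fold change was 0.30 (SE 0.12, edgeR adjusted p = 0.174). The peak shared by H2ac6 and H2bc4 had 64.6 to 67.6 CPM in WT CC and 72.6 to 79.1 CPM in HOMO CC, with no overlap and a log2 fold change of 0.18 (SE 0.08).

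Among peaks lower in HOMO, the effects were of similar size. A peak 839 bp from the nearest start at H2ac14 and H2bc14 had 15.3, 14.2 and 13.8 CPM in WT CB and 7.99, 12.1 and 12.9 CPM in HOMO CB, with no overlap (log2 fold change -0.35, SE 0.16, edgeR adjusted p = 0.241). In CC its groups overlapped, at 10.2 to 12.5 and 8.72 to 10.6 CPM. A peak inside the span of H2bc22 had 9.51 to 11.5 CPM in WT CB and 6.29 to 9.64 in HOMO CB, and one at H2ac12 and H2bc12 had 14 to 15.7 and 10.1 to 14.5 CPM. In CC the peak 301 bp from the start of H1f5, a linker histone gene, had 23.7 to 25.8 CPM in WT and 19.7 to 21.6 CPM in HOMO (log2 fold change -0.26, SE 0.11, edgeR adjusted p = 0.22), and in CB its groups overlapped.

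Counted over the members, WT and HOMO libraries did not overlap at 8 histone-near peaks in CB, 7 higher and 1 lower in HOMO, where 10.3% and 13.2% of all peaks were apart in these directions. In CC they did not overlap at 7 higher and 1 lower, where 9.81% and 11.2% of all peaks were. The shares of the 67 peaks were 10.4% and 1.49% in both populations.

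**Figure D5:**
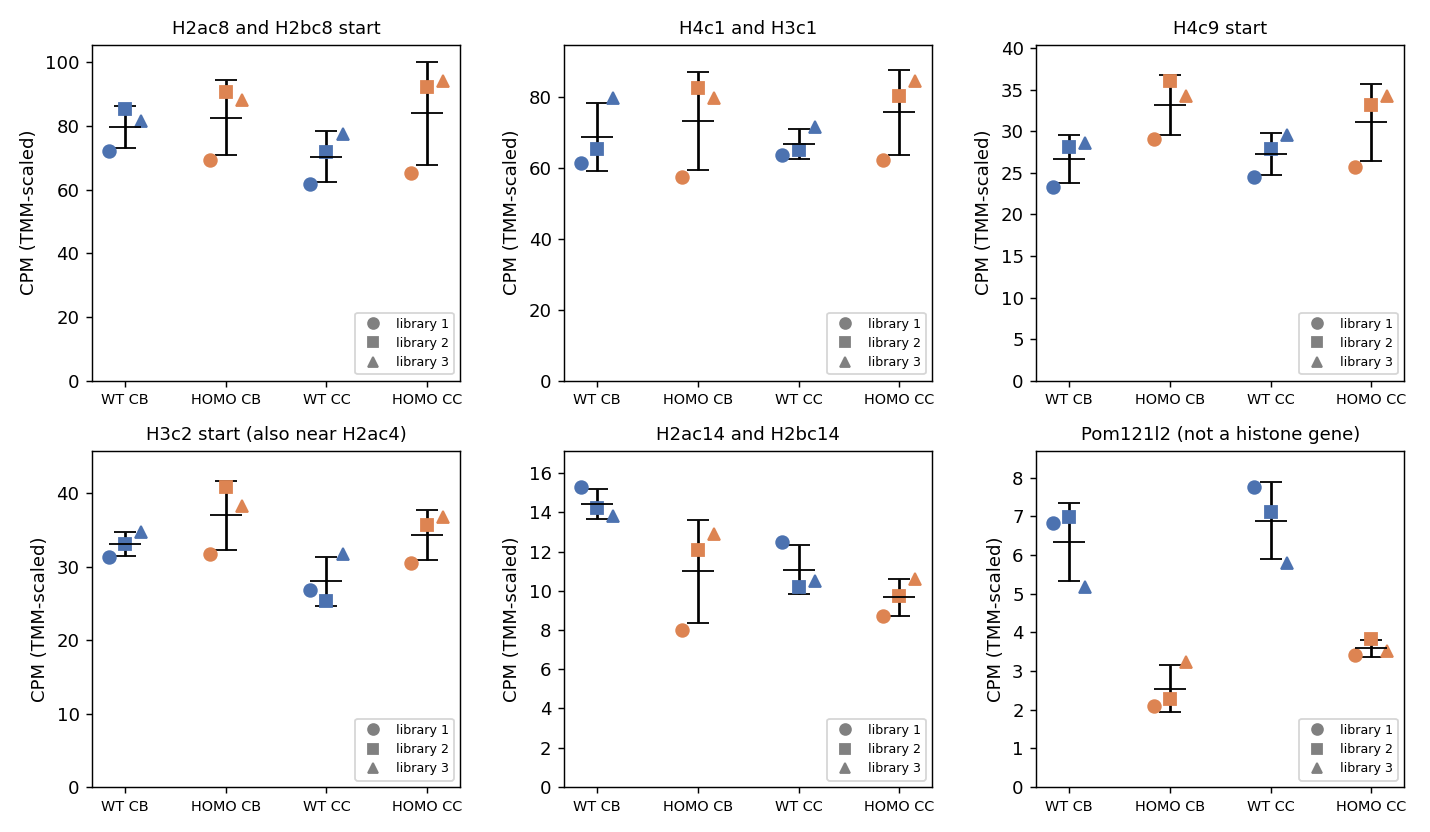
CPM in each of 12 libraries at 5 histone-near peaks and at the peak of Pom121l2, by group. Symbols give the library number, horizontal bars the group mean and error bars 1 SD. WT and HOMO overlap at the histone genes except at H4c9 and H2ac14 with H2bc14 in CB, and at Pom121l2 every HOMO library lies below every WT library.

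The third question was whether CC and CB differ at the histone genes. In WT, edgeR called 0 of 67 histone-near peaks, where 5.43% of all peaks were called (3.35% higher and 2.08% lower in CC), and 2 had an unadjusted p under 0.05, both lower in CC, against 19.9% of all peaks. In HOMO it called 0, where 7.22% were called (4.78% higher and 2.44% lower), and found 1 at an unadjusted p under 0.05, against 19.6%. DESeq2 called 0 in both and found 2 and 1, and limma called 0 in both and found 5 and 0. The 95% intervals lay within 1.5-fold at 60 peaks in WT and 61 in HOMO.

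CC leaned slightly below CB at most histone-near peaks, with median log2 fold changes of -0.10 in WT and -0.05 in HOMO, but after loess normalization, which removes differences that follow the level, both medians were 0.01. Over all peaks the medians with TMM scaling were -0.03 and 0.00, and over gene-end peaks -0.09 and -0.05. With that scaling the fold change was below 0 at 52 histone-near peaks in WT and 50 in HOMO, and at all 17 peaks near both an H2A and an H2B gene in WT, which loess normalization did not keep. With CPM over the plain totals, the summed accessibility in WT was 0.01 lower in CC on the log2 scale, against 0.08 lower with TMM scaling.

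Within a genotype, CB and CC libraries of the same number deviated together, so a fit with the replicate number as a block within genotype is given beside this result. It called 6 histone-near peaks lower in CC in WT, where 11.8% of all peaks were lower, and 2 lower in HOMO, where 9.68% were. The 6 in WT lay at H2bc6, H2ac14 with H2bc14, H2ac12 with H2bc12, H2ac8 with H2bc8, the start of H1f2, and H2ac4 with H3c2, with log2 fold changes from -0.67 to -0.18. The H2bc6 peak, inside the long span of that gene and 6975 bp from its start, had 5.95, 6.76 and 4.94 CPM in WT CB and 4.27, 4.09 and 2.85 CPM in WT CC, with no overlap. The 2 in HOMO were near H2bc13 and at H2ac11 with H2bc11. Without the block, WT CC was below WT CB in all libraries at 9 histone-near peaks and above at 0, where 12.7% and 12.2% of all peaks were apart in these directions. In HOMO the counts were 4 and 0, where 11.5% and 13.5% were.

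The other cluster peaks give the setting of the histone genes. Of these 75 peaks, 53 were within 1 kb of a transfer RNA gene, and they carried 56 tRNA gene names, since the interval also holds a large tRNA gene cluster. Near a protein-coding gene were 15 of the 75, of which a peak at Btn1a1 also counts among the 53, and these genes include Hfe, the iron regulator that lies between the histone genes, and Abt1. Their summed accessibility was 911 to 978 CPM in WT CB, 937 to 969 in HOMO CB, 910 to 951 in WT CC and 916 to 996 in HOMO CC, with all groups overlapping.

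Only 1 of the 75, a peak at Pom121l2, a gene of a nuclear pore membrane protein family, passed the test in HOMO against WT, in both populations. It had 6.83, 6.99 and 5.17 CPM in WT CB and 2.1, 2.28 and 3.23 CPM in HOMO CB, and 7.76, 7.1 and 5.8 CPM in WT CC and 3.4, 3.83 and 3.51 CPM in HOMO CC. Every HOMO library was below every WT library. The log2 fold change was -1.25 in CB (SE 0.22, edgeR adjusted p = 0.00402) and -0.92 in CC (SE 0.22, edgeR adjusted p = 0.0267). The call was lost in CB without HOMO CB 2 (edgeR adjusted p = 0.0536). In CC it was lost without HOMO CC 2, HOMO CC 3, WT CC 1 or WT CC 2 (edgeR adjusted p = 0.143, 0.119, 0.11 and 0.0781). These fits called fewer peaks in the whole table too. The CB fit called 0.496% of all peaks, against 4.63% with all libraries. The CC fits called 0.0247%, 0.319%, 0.48% and 0.875%, against 2.75%.

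Peaks at the tRNA genes of the interval leaned upward like the histone-near peaks. None of the 53 was called by edgeR in either population, 12 (22.6%) and 7 (13.2%) had an unadjusted p under 0.05 where 19.7% and 17.2% of all peaks had, and their medians were 0.14 in CB and 0.16 in CC. The 211 peaks at tRNA genes elsewhere had medians of -0.01 and 0.07, with 4 (1.9%) called in each, all lower, where 3.85% and 2.17% of all peaks were called lower. The highest of the cluster's tRNA peaks, at n-TYgta7, a tyrosine tRNA gene, had 34.0 to 35.5 CPM in WT CB and 36.5 to 41.9 in HOMO CB, and 33.6 to 36.2 in WT CC and 39.6 to 47.4 in HOMO CC. Its groups did not overlap in either population, and its log2 fold change in CC was 0.32 (SE 0.10, edgeR adjusted p = 0.0769). The next, at n-TSgct5, a serine tRNA gene, had 36.6 to 38.9 CPM in WT CB, 35.8 to 39.2 in HOMO CB, 33.3 to 36.1 in WT CC and 35.2 to 36.4 in HOMO CC, and its groups overlapped in both. The 15 peaks near protein-coding genes leaned downward, with medians of -0.22 in CB and -0.25 in CC. The strongest of them, at Zfp322a, a zinc finger gene, had 50.2 to 51.4 CPM in WT CB and 39.9 to 49.8 CPM in HOMO CB.

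The rest of the histone gene system was described from lists of genes. At replication-dependent histone genes outside chromosome 13, 0 of 17 peaks were called by edgeR in HOMO against WT in CB or CC, with 1 in each at an unadjusted p under 0.05, and the medians were 0.01 and 0.00. Of 27 peaks at variant histone genes, which are made outside S phase too, 2 fell in HOMO CB and 2 in HOMO CC, and none rose. That is 7.41% in each, where 4.63% and 2.75% of all peaks were called, most of them lower. A peak at H2aj, which encodes an H2A variant, fell in both and went from 17.5 ± 2.27 CPM in WT CB to 10.6 ± 0.478 in HOMO CB and from 15.5 ± 0.827 in WT CC to 9.91 ± 1.37 in HOMO CC (mean ± SD, n = 3). The log2 fold changes were -0.73 and -0.68 (edgeR adjusted p = 0.00794 and 0.0191). The stronger peak of that gene did not pass (51.3 ± 4.62 CPM in HOMO CB and 57.3 ± 4.6 in WT CB). The H2aj call was lost in CB without HOMO CB 2, HOMO CB 3 or WT CB 1 (edgeR adjusted p = 0.0556, 0.0549 and 0.0598). In CC it was lost without HOMO CC 2, HOMO CC 3, WT CC 1 or WT CC 3 (edgeR adjusted p = 0.139, 0.119, 0.0713 and 0.0555). Those CB fits called 0.496%, 1.17% and 1.01% of all peaks, against 4.63% with all libraries. The CC fits called 0.0247%, 0.319%, 0.48% and 1.48%, against 2.75%.

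Peaks of a few markers of other cells were also called lower in HOMO. Over all peaks, 3.85% were called lower in CB and 2.17% in CC. Of the 2 T cell marker peaks, that of Cd4 fell in HOMO CB (log2 fold change -1.35, edgeR adjusted p = 0.00355) and in HOMO CC (-1.02, edgeR adjusted p = 0.0228), and that of Cd3d did not pass. Of 7 myeloid marker peaks, that of Cd14 fell in both (-1.29 and -1.39, edgeR adjusted p = 0.0159 and 0.015), and of 3 erythroid peaks 1 of Klf1 fell in CB (-0.64, edgeR adjusted p = 0.0421). The summed level of the T cell markers was 26.8 to 31 CPM in WT CB and 21.1 to 23.8 in HOMO CB, and 29.2 to 30.9 in WT CC and 24.2 to 26.4 in HOMO CC, with no overlap in either population. Summed myeloid markers had 22.9 to 28.4 and 21.6 to 23.8 CPM in CB, and 34.2 to 46.6 and 44.1 to 44.9 CPM in CC. Summed erythroid markers had 63 to 66.3 and 49.8 to 56.4 CPM in CB, and 50 to 55.9 and 48.3 to 51.8 CPM in CC. Both Csf1r peaks were higher in CC than in CB in WT (0.89 and 1.00) and in HOMO (1.19 and 1.34), all called by edgeR. The part of other cells in the falls at Pom121l2, at variant histone genes and at the expression factors described next was not tested.

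A list of 26 genes for histone transcription, 3′ end processing and chaperoning had 89 peaks, with none at Hira and Nfya. Pou2f1 and Nfyc had the most peaks, so the counts weigh these genes more than the others. Of the 89 peaks, 2 rose and 4 fell in HOMO CB, and 1 rose and 4 fell in HOMO CC. That is 6.74% and 5.62% of them, where 4.63% and 2.75% of all peaks were called. The medians were 0.03 and 0.04. Peaks that fell in both lay at Lsm11, a subunit of the U7 particle that cuts histone messenger RNAs, at Hat1, which acetylates new histone H4, and at Cdk2, the kinase that activates Npat. The Lsm11 peak went from 4.58 ± 0.15 to 2.56 ± 0.354 CPM in CB and from 5.29 ± 1.2 to 2.2 ± 0.116 CPM in CC, with log2 fold changes of -0.85 and -1.23 (edgeR adjusted p = 0.0355 and 0.0097). A stronger Lsm11 peak, at 33.7 ± 3.32 CPM in WT CB and 30.6 ± 1.96 in HOMO CB, did not pass. Stronger peaks of Hat1 and Cdk2 did not pass in either population. That of Hat1 had 52.1 ± 3.75 CPM in WT CB and 51.3 ± 2.24 in HOMO CB. That of Cdk2 had 34.0 ± 1.96 and 34.0 ± 0.378 CPM. The Lsm11 call was lost in CB without any 1 of HOMO CB 2, HOMO CB 3 and the 3 WT CB libraries (edgeR adjusted p = 0.0694 to 0.181). In CC it was lost without HOMO CC 2 or HOMO CC 3 (edgeR adjusted p = 0.0934 and 0.0542). Those CB fits called 0.496% to 3.2% of all peaks, against 4.63% with all libraries. The CC fits called 0.0247% and 0.319%, against 2.75%. The rise in both populations was at a peak inside Pou2f1, the gene of Oct-1, with log2 fold changes of 0.41 and 0.55 (edgeR adjusted p = 0.0455 and 0.0188). The calls at Hat1, Cdk2 and Pou2f1 also ended in fits without single libraries. In CC without HOMO CC 2, edgeR adjusted p reached 0.172 for Hat1 and 0.226 for Cdk2, and 0.0247% of all peaks were called. In CB without HOMO CB 2, edgeR adjusted p reached 0.244 for Pou2f1, and 0.496% of all peaks were called.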

How the data were processed

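The deposited values are raw counts per peak that the authors made for 68689 peaks of 501 bp in 12 libraries, on mm10 per the labels. BWA, FastQC, deepTools and R 4.2.1 are named without roles per the submitters' processing notes. Not given in the sources used here were the peak caller, the counter, the handling of duplicate and multiply aligned reads, the Tn5 offset and pooling. Counts were fitted with edgeR 4.0.16 (R 4.3.3, quasi-likelihood, TMM factors, a common biological coefficient of variation of 0.142) over all peaks and all 4 groups. filterByExpr removed 0 peaks. Benjamini-Hochberg adjustment ran over all peaks, with a threshold of 0.05 and a prior count of 2. limma 3.58.1 (after cyclic loess) and DESeq2 1.42.0 were alternatives. Python 3.11.15 with pandas 2.3.3 and numpy 2.4.6 made the summaries, and matplotlib 3.10.9 the figures.

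The fit was tested on simulated data for HOMO against WT in CB over 68689 peaks, where it called 12% of peaks changed 1.5-fold and 50% of those changed 2-fold. Of its 140 calls, 12 were at peaks left unchanged. The changed peaks were few and drawn from all levels, so these rates need not hold at the histone-near peaks. In CB the median SE was 0.12 at the histone-near peaks and 0.2 over all peaks. Replicate libraries differed by more than counting noise (chi-square per degree of freedom 2.28 to 7.66). Same-numbered CB and CC libraries of a genotype deviated together (6 correlations of 0.21 to 0.52, against -0.34 to 0.12 for 12 other pairs), so the numbers were taken as pairing them. Across genotypes 12 same-numbered pairs had correlations of -0.01 to 0.40, against -0.30 to 0.18 for 24 others. The same-numbered pairs were shifted upward here too, but not every one passed 0.1, so the numbers were not taken as pairing genotypes.

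Genes and starts came from RefSeq. The peaks, the gene lists (markers, histone genes elsewhere, variant histone genes, expression factors, tRNA genes) and the rules were chosen with earlier results of these data known. Peaks were named by rule: any histone-near peak called, the highest and the lowest of each histone class, the 3 of smallest p in each direction of both genotype comparisons, and, of the other cluster peaks, those called and the 3 of highest level. The H2bc6 peak called with the block, the peaks called in other alternatives and the single peaks of the gene lists were named after their values were seen. Alternatives were the size factors, filters, tests, samples fitted, covariate, block and distance.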

Additional observations from a re-analysis of the deposited data

How the results depend on the processing

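No alternative reversed a direction of a called result, and DESeq2, its size factors, limma after loess, the stricter count minimum of 10 and distances of 500 bp and 2 kb all left 0 histone-near peaks called in the 5 comparisons. The median genotype effect ranged over the alternatives from 0.01 to 0.13 in CB and from 0.08 to 0.16 in CC, the difference of effects from -0.04 to 0.12, and CC against CB from -0.14 to 0.01 in WT and from -0.12 to 0.01 in HOMO. Without single libraries the histone-near calls ran from 0 to 1 in CC and were 0 to 0 in the other comparisons. With the log2 library total as covariate, 1 peak (H2bc6) was called lower in CC in WT, where 11.4% of all peaks were called. Without both HOMO libraries numbered 1, chosen after seeing the data, 2 histone-near peaks were called in CB and 5 in CC. Those libraries were the lowest of their group at most histone-near peaks, so the choice itself raises the HOMO values there. The summed level of WT CC against WT CB was -0.01 (log2) with plain totals, against -0.08.

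With a replicate block, which the check of the numbers did not bear out across genotypes, 2 histone-near peaks were called higher in CB (H4c9 and H4c3), where 4.03% of all peaks were, and 2 in CC (H2ac8 with H2bc8, and H3c2), where 3.8% were. With the replicate block within genotype, CC against CB had 6 calls in WT and 2 in HOMO. For the other cluster peaks the replicate block gave 8 calls (10.7%) in CB and 5 (6.67%) in CC, where it called 13.2% and 10.4% of all peaks, and within genotype 1 in WT and 2 in HOMO, where it called 22.1% and 22.2%.

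The other cluster peaks had 1 call in each genotype comparison. In CB this became 3 with DESeq2, 8 with the covariate, 2 with only the groups compared and 5 without both HOMO libraries numbered 1. In CC it became 3 with DESeq2, 2 with its size factors, 5 with the covariate and again 5 without the first HOMO library of each population. It was 0 with both WT libraries numbered 2 left out, also chosen after seeing the data. Without single libraries it ran from 0 to 4 in CB and from 0 to 5 in CC. CC against CB in HOMO had 1 with the covariate, where 13.1% of all peaks were called. In CB and CC, all peaks were called at 6.2% and 4.53% with DESeq2, 11.8% and 8.42% with the covariate, and 7.14% and 6.47% without both HOMO libraries numbered 1. The share was 3.85% in CB with only the groups compared. In CC it was 2.83% with the size factors of DESeq2 and 0.473% without both WT libraries numbered 2. Without single libraries it ran from 0.496% to 5.98% in CB and from 0.0247% to 4.97% in CC. The causes were not tested. At the weakest histone-near peak, near H4c18, the 95% interval in CB ran from -1.53 to 0.49. The part of depth in this width was not tested.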
